A study of Cucumis melo with 18 samples.

Results

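In mature fruits of the melon inbred line “B-6”, 28 of the 22394 genes counted had a peak of expression that set this line and stage apart from every other group of the series. They were chosen by level. Counts were scaled to the total of their library and expressed as CPM, the count that a gene would have in a library of standard size, and the 3 libraries of a group were averaged. A gene was taken when its mean in “4_6” was at least 5 CPM and at least 3 times the mean in each of the other 5 groups, with every “4_6” library above each of the other 15 libraries. Values of “4_6” against other groups therefore follow from the choice, and they are given as a description with no test.

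The study compared “B-6”, whose fruits turn white, with “B-14”, whose fruits turn orange, to follow the change of flesh color during development. Here “4_6”, mature “B-6” fruits at 45 days after pollination (DAP), was set against younger “B-6” fruits at 10 and 30 DAP (“1_6” and “3_6”) and against “B-14” fruits of the same ages (“1_14”, “3_14” and, at maturity, “4_14”). All plants were hand-pollinated in 1 greenhouse, and no group carried an allele or an agent beyond its line and stage. Each group holds 3 biological replicates, which came from 3 plants with 1 fruit each, and each line is 1 genotype. The study describes the tissue as flesh, whereas the sample labels name it blade. The identifiers carry no gene names, so the tissue could not be checked against markers of flesh, seed, rind or leaf. In bulk RNA of this kind, a change in the number of cells of a type and a change in RNA per cell cannot be told apart.

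Late in melon fruit development, chloroplasts lose their green pigment, sugars and aroma compounds accumulate, and cell walls soften. Plants also build triterpenes from squalene epoxide, which oxidosqualene cyclases fold into ring scaffolds. Beta-amyrin synthase is one of these cyclases, and beta-amyrin is the scaffold of many oleanane-type saponins. Receptor-like kinases sit in the plasma membrane, bind a ligand outside the cell and signal through a kinase domain inside it. These are the only functions that could be given to the 28 genes, since the study names 2 of them, MELO3C002943.2 as a beta-amyrin synthase and MELO3C010825.2 as a putative receptor-like protein kinase At3g47110. The other 26 are given by identifier alone.

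The 28 genes were few and mostly of moderate level. Total counts per library lay between 20651703 and 22675606, so that 3 counts in the smallest library, the floor used for lower bounds, were 0.145 CPM. The same rule found 56 genes when “4_14” took the place of “4_6”, 470 for “1_6”, 370 for “1_14”, 12 for “3_6” and 9 for “3_14”. Mean levels of the 28 genes in “4_6” ran between 5.29 and 1318 CPM with a median of 25.3 CPM, and 20 genes reached 10 CPM, 9 reached 50 CPM and 4 reached 500 CPM. Their ratio to the next highest group had a median of 3.73. It was under 4 for 16 genes and at least 10 for 4 genes, and it ran between 3.03 and 129.

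**Figure D1:**
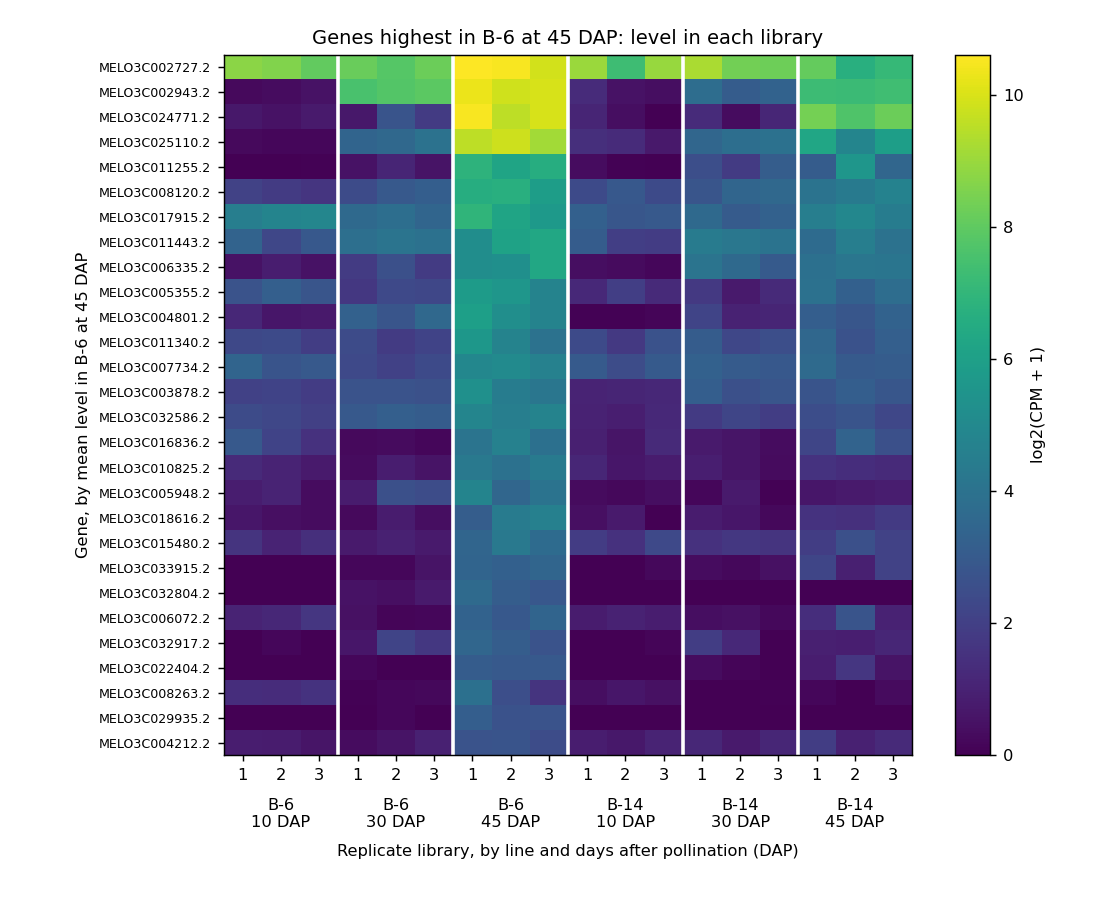
Level of the 28 genes, one row each, in the 18 libraries, as log2(CPM + 1) by color, with white lines between the 6 groups. Rows are ordered by the mean in “B-6” at 45 DAP, from 1318 CPM at the top to 5.29 CPM at the bottom, and the brightest columns are the 3 libraries of that group. The upper 4 rows stand far above the others, and many lower rows are dark in all libraries of 10 DAP.

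Together the 28 genes made up a small share of the transcripts. Their summed level was 4866 ± 868 CPM in “4_6” (SD, n = 3), with libraries between 4108 and 5813 CPM. The sums of single libraries were 338 to 518 CPM in “1_6”, 545 to 639 CPM in “3_6”, 192 to 566 CPM in “1_14”, 410 to 733 CPM in “3_14” and 685 to 980 CPM in “4_14”. Most of this came from 4 genes, MELO3C002727.2, MELO3C002943.2, MELO3C024771.2 and MELO3C025110.2, which held 85.3% of the summed mean level in “4_6”. Without these 4 genes the libraries of “4_6” summed to 641 to 823 CPM and those of “4_14” to 148 to 204 CPM.

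MELO3C002943.2, the beta-amyrin synthase, was the second most abundant of the genes. It had 1265, 915 and 985 CPM in the libraries of “4_6”. The other “B-6” libraries had 0.192, 0.277 and 0.452 CPM at 10 DAP and 188, 220.0 and 246 CPM at 30 DAP. The “B-14” libraries had 1.44, 0.417 and 0.32 CPM at 10 DAP, 13.03, 7.37 and 9.05 CPM at 30 DAP, and 152, 148 and 163 CPM at 45 DAP. No group overlapped “4_6”, both lines were at 1.44 CPM or less at 10 DAP, and the “3_6” libraries lay above the “4_14” libraries. The mean was 1055 ± 185 CPM in “4_6”, against 218 ± 28.8 CPM in “3_6”, the next highest group, a ratio of 4.84. The differences among the other 5 groups, which the choice did not use, are tested below.

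MELO3C010825.2, the putative receptor-like protein kinase, was a gene of low level with a wide gap to all other groups. Its libraries had 18.7, 14.7 and 19.7 CPM in “4_6”, against 1.961, 1.65 and 1.42 CPM in “4_14”, the next highest group. In the other 12 libraries it stayed between 0.234 and 1.39 CPM. The ratio of “4_6” to “4_14” was 10.5, and the lowest “4_6” library was 7.49 times the highest of all other libraries.

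The remaining genes of high level carry no name. MELO3C002727.2 had 1557, 1453 and 943 CPM in “4_6”, against 608, 326 and 308 CPM in “3_14”, the next highest group. It was expressed in every group, with 104 CPM as its lowest library, so that its peak stood on a high level elsewhere and its ratio was 3.19. MELO3C024771.2 had 1429, 738 and 984 CPM in “4_6”, against 334, 202 and 294 CPM in “4_14”. All of its 12 libraries of 10 and 30 DAP were at 5.71 CPM or less, so that it was a gene of maturity in both lines, with 3.79 times the mean level in “4_6” as in “4_14”. MELO3C025110.2 had 739, 891 and 554 CPM in “4_6”, against 77.5, 27.0 and 61.1 CPM in “4_14”, a ratio of 13.2 between the means. Its libraries of “3_6” and “3_14” lay between 9.66 and 15.1 CPM, and those of 10 DAP at 1.67 CPM or less. MELO3C011255.2 had 115, 71.8 and 97.5 CPM in “4_6”, against 7.53, 46.3 and 10.2 CPM in “4_14”. One “4_14” library thus stood well above the other two, and the ratio of the means was 4.44.

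Below these stood genes of middle level, none of which carries a name. MELO3C008120.2 had 97.2, 103 and 59.4 CPM in “4_6”, against 15.6, 19.6 and 25.4 CPM in “4_14”, and 10.9 CPM or less at 30 and 10 DAP. MELO3C017915.2 had 123, 72.7 and 52.3 CPM in “4_6”, against 22.1, 26.6 and 28.1 CPM in “1_6”, the next highest group, and 22.5, 28.6 and 20.9 CPM in “4_14”. Its “B-6” level was thus higher at 10 DAP than at 30 DAP. MELO3C011443.2 had 35.8, 67.9 and 81.0 CPM in “4_6”, against 20.2, 17.6 and 15.6 CPM in “3_14”, and MELO3C006335.2 had 36.1, 37.7 and 82.2 CPM in “4_6”, against 14.2, 17 and 16.4 CPM in “4_14”. In both of these genes replicate 3 was the highest “4_6” library. MELO3C005355.2 had 54.8, 45.9 and 26.1 CPM in “4_6”, against 14.3, 8.57 and 12.8 CPM in “4_14”. MELO3C011340.2 had 48.5, 25.7 and 14.9 CPM in “4_6”, against 10.7, 5.40 and 8.35 CPM in “4_14”. MELO3C003878.2 had 39.0, 20.9 and 16.8 CPM in “4_6”, against 5.84, 8.12 and 6.17 CPM in “4_14”. In these 3 genes replicate 1 was the highest “4_6” library and replicate 3 the lowest. MELO3C007734.2 was more even, with 29.5, 33.1 and 24.4 CPM in “4_6”, against 11.5, 6.96 and 7.59 CPM in “4_14”, and its lowest library of all groups had 3.15 CPM.

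**Figure D2:**
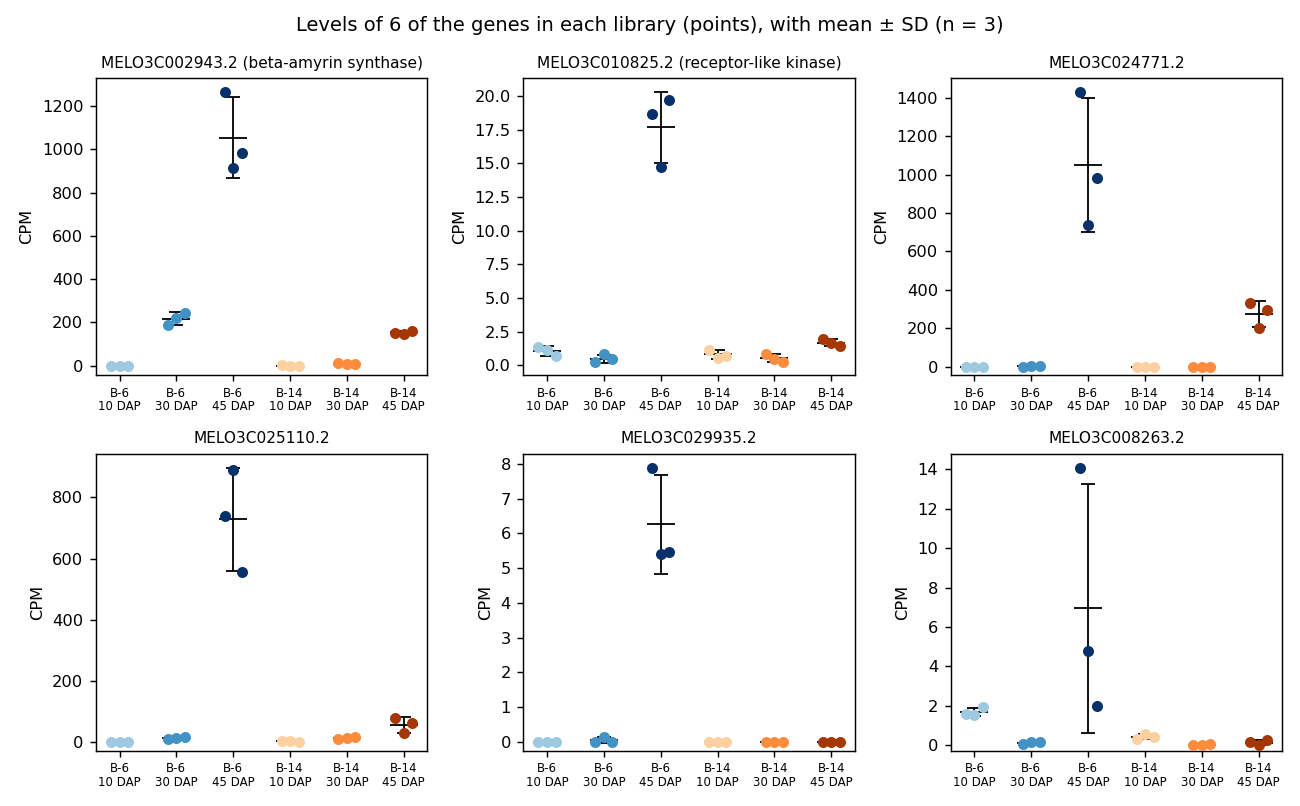
CPM of 6 of the genes in each library (points), with the mean and SD of the 3 libraries of each group (bars) and a linear axis of its own for each gene. In each panel all 3 points of “B-6” at 45 DAP lie above all other points, by a wide gap for MELO3C010825.2 and by a factor of 1.02 for MELO3C008263.2, whose 3 points are far apart.

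Some of the genes were all but unread outside “4_6”. MELO3C029935.2 had 172, 119 and 124 counts in “4_6”, which were 7.88, 5.41 and 5.47 CPM. It had 3 counts in 1 library of “3_6” and 0 counts in the other 14 libraries. Over the group, “4_6” was 132 times “3_6” in counts scaled to the totals (exact 95% counting interval 44.9 to 644), and at least 43.6 to 45.0-fold higher than each of the other 4 groups, with 3 counts per library as the floor. MELO3C032804.2 had 257, 172 and 146 counts in “4_6” and 9, 7 and 16 counts in “3_6”. It had 0 counts in all 12 other libraries, which included every “B-14” library, and “4_6” was at least 60.4 to 62.4-fold higher than these groups. Both genes were thus read in “B-6” alone, at 30 and 45 DAP, at this depth. These intervals and floors cover counting error only.

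MELO3C022404.2 and MELO3C033915.2 were at 0 counts in each “1_6” library, and “4_6” was at least 48.5-fold and 65.7-fold higher. MELO3C022404.2 had 7.43, 6.78 and 6.70 CPM in “4_6”, against 0.802, 2.19 and 0.474 CPM in “4_14”. Its CV among the “4_6” libraries, 5.70%, was the smallest of the 28. These libraries held 162, 149 and 152 counts, where counting error alone can give a spread of this size. MELO3C018616.2 had 7.75, 20.4 and 23.3 CPM in “4_6”, against 1.92, 1.78 and 2.47 CPM in “4_14”, and 0.736 CPM or less in the other 12 libraries. Its ratio of 8.34 was the fifth largest. MELO3C005948.2 had 26.9, 10.4 and 15.5 CPM in “4_6”, against 0.769, 4.94 and 4.49 CPM in “3_6”, and 1.11 CPM or less in the other 12 libraries, so that outside “4_6” it was read mainly in 2 libraries of “3_6”. MELO3C032917.2 had 10.2, 7.74 and 5.60 CPM in “4_6”, against 0.577, 3.53 and 2.31 CPM in “3_6”, and at most 3 counts in each library of 10 DAP.

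At the edges of the rule the genes differed little from those left out. MELO3C016836.2 and MELO3C006072.2, with ratios of 3.03 and 3.04, were just inside the limit of 3, and MELO3C029417.2 and MELO3C006944.2, both at 2.98, were just outside. For the level, MELO3C004212.2 at 5.29 CPM and MELO3C029935.2 at 6.26 CPM were just inside, and MELO3C022822.2 at 4.48 CPM and MELO3C005784.2 at 4.27 CPM were just outside. MELO3C011976.2 alone met the level and the ratio but had overlapping libraries, with 1.70, 10.1 and 20.4 CPM in “4_6” and up to 2.94 CPM elsewhere. A further 49 genes met all conditions but had a ratio between 2 and 3.

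The “4_6” libraries did not contribute equally. Replicate 1 was the highest of the 3 for 16 of the 28 genes, and replicates 2 and 3 for 6 each. Over all 11960 genes with at least 5 CPM in “4_6”, these shares were 34.8%, 28.3% and 36.9%. The CV among the 3 libraries had a median of 30.5% for the 28 genes and of 13.4% for all those genes. The choice used these same libraries, and 1 high library can carry a mean over the limit. All those genes had no limit on the ratio and were not matched for level, so both differences are a description only. The largest CV, 91.1%, was that of MELO3C008263.2, with 14.1, 4.78 and 1.98 CPM in “4_6”, against 1.58, 1.52 and 1.94 CPM in “1_6”, its next highest group. Its lowest “4_6” library was only 1.02 times the highest other library. Over the 28 genes, the lowest “4_6” library was 1.02 to 37.3 times the highest other library (median 2.11), and this factor was at least 2 for 16 genes and under 1.5 for 4 genes.

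The rule was then applied with 1 library of “4_6” left out, and the left-out library was set against the other 5 groups. Those groups were still the ones that the choice had required to be low, so an excess over all genes was built in, and the counts are a description only. Without replicate 1, 28 genes were chosen, 21 of them among the 28, and the left-out library was above all 15 other libraries for 25 of these and at least 3 times each other group mean for 18. Among all 11983 genes with at least 5 CPM in the remaining libraries of “4_6”, 11.4% and 0.25% did so. Without replicate 2, 27 genes were chosen, and the left-out library passed these marks for 27 and 19 of them, against 14.7% and 0.311% of all genes. Without replicate 3, 30 genes were chosen, and it passed for 29 and 14 of them, against 16.2% and 0.209%. The median ratio of the left-out library to the next highest group was 4.19 for replicate 1, 3.51 for replicate 2 and 2.88 for replicate 3.

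The next highest group was “4_14” for 17 of the 28 genes (60.7%), “3_6” for 7, “1_6” and “3_14” for 2 each and “1_14” for none. Among the other 2420 genes with their highest mean in “4_6” and at least 5 CPM there, “4_14” came next for 57.7%, so that the share for the 28 genes was close to that background. The share with “3_6” next was 25% for the 28 genes and 8.88% for the other 2420, a difference that was not tested. The 7 genes were MELO3C002943.2, MELO3C004801.2, MELO3C032586.2, MELO3C005948.2, MELO3C032804.2, MELO3C032917.2 and MELO3C029935.2. Over the 28 genes, the median of the group means was 0.942 CPM in “1_6”, 3.18 CPM in “3_6”, 0.828 CPM in “1_14”, 1.69 CPM in “3_14” and 6.34 CPM in “4_14”. The step between 30 and 45 DAP had a median ratio of 14.5 in “B-6” (range 3.32 to 353), which the rule sets at 3 or more. In “B-14” it was 2.88 over the 26 genes with a count in both groups (range 0.41 to 280). MELO3C024771.2 gave the upper end in both lines.

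The choice fixed no direction among the other 5 groups, and 4 comparisons were made there. It did limit each of their means to the “4_6” mean divided by 3 or less. The shares set beside the counts are over all genes tested, which were not chosen for a late peak. Each used edgeR's quasi-likelihood F test on the 6 libraries of the pair, and a gene was called at a Benjamini-Hochberg adjusted p of at most 0.05 over all genes tested and a 2-fold difference. The 4 comparisons share groups, since “3_14” and “3_6” and “1_6” each enter 2 of them. Of the 28 genes, 15 had counts enough to be tested in all 4.

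In “4_14” versus “3_14”, maturity against 30 DAP in the orange line, 13 of the 28 genes were upregulated, 1 was downregulated and 11 were not called. The other 3 were not tested because their counts were too low in both groups. Among the 11, MELO3C015480.2 and MELO3C032586.2 had an edgeR adjusted p of 0.033 and 0.047 but less than a 2-fold difference. Of all 15600 genes tested, 7.83% were upregulated and 11.4% downregulated, 19.3% in all. The median log2 fold change was 1.38 over the 25 genes tested and -0.00 over all genes tested. MELO3C002943.2, the beta-amyrin synthase, had 152, 148 and 163 CPM in “4_14”, against 13.03, 7.37 and 9.05 CPM in “3_14” (log2 fold change 3.96 ± 0.22 SE, edgeR adjusted p = 7.9e-05). MELO3C024771.2 had 334, 202 and 294 CPM in “4_14”, against 1.47, 0.271 and 1.22 CPM in “3_14” (8.12 ± 0.52, edgeR adjusted p = 0.00011). MELO3C016836.2 had 3.65, 9.28 and 4.98 CPM in “4_14”, against 0.69, 0.498 and 0.281 CPM in “3_14” (3.57 ± 0.47, edgeR adjusted p = 0.0013). In these 3 genes every “4_14” library was above every “3_14” library. The kinase MELO3C010825.2 was upregulated by 1.63 ± 0.45 on the log2 scale (edgeR adjusted p = 0.022), a call that was lost without replicate 1 of “4_14” or replicate 2 of “3_14”. The downregulated gene was MELO3C002727.2, with 270, 104 and 136 CPM in “4_14”, against 608, 326 and 308 CPM in “3_14” (log2 fold change -1.29 ± 0.43, edgeR adjusted p = 0.043). This call held in 2 of the 6 fits with 1 library left out and was lost without replicate 1 or 2 of “3_14” and without replicate 2 or 3 of “4_14”. Of the 14 calls, 10 held in all 6 such fits.

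The others upregulated in “4_14” versus “3_14” were MELO3C025110.2, MELO3C008120.2, MELO3C017915.2, MELO3C005355.2, MELO3C004801.2, MELO3C018616.2, MELO3C033915.2, MELO3C006072.2 and MELO3C022404.2, with log2 fold changes between 1.15 and 3.20. The call of MELO3C008120.2 held in 4 of the 6 fits with 1 library left out. That of MELO3C022404.2, which had 6, 2 and 0 counts in “3_14”, held in 3. MELO3C011443.2, MELO3C003878.2 and MELO3C007734.2 did not pass the test, with log2 fold changes of -0.12 ± 0.22, 0.09 ± 0.22 and 0.21 ± 0.24 in “4_14” versus “3_14”. MELO3C011443.2 had 12.2, 22.2 and 15.1 CPM in “4_14”, against 20.2, 17.6 and 15.6 CPM in “3_14”, and these libraries overlapped.

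**Figure D3:**
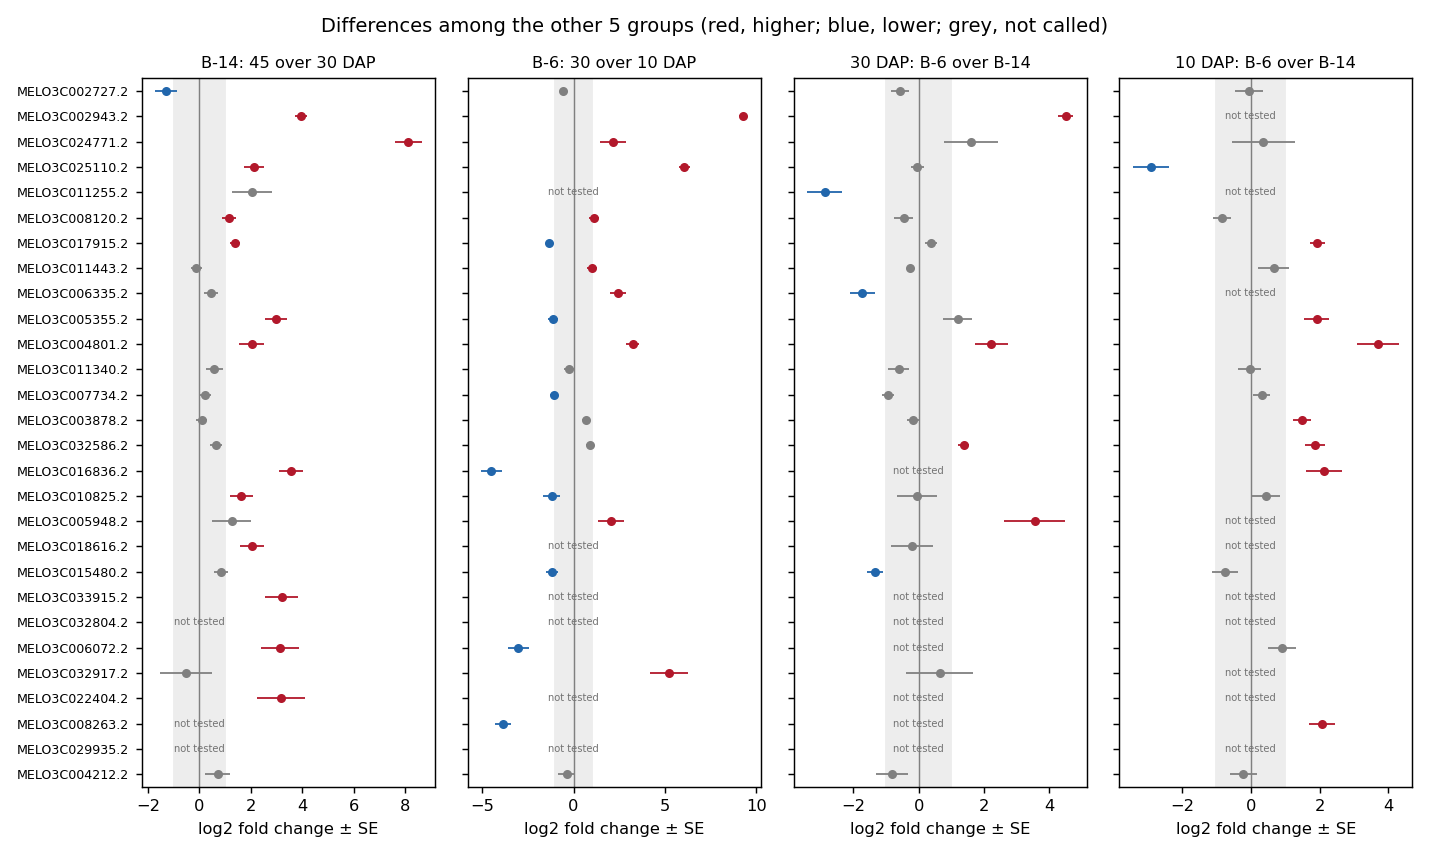
Log2 fold change with its SE (bars) of each of the 28 genes in the 4 comparisons that hold no library of “B-6” at 45 DAP, from edgeR. Red points are upregulated, blue points downregulated and grey points not called, and the grey band marks less than a 2-fold difference. In the first panel 13 points are red and 1 is blue, and in the second panel 9 are red and 8 are blue.

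In “3_6” versus “1_6”, the earlier step in the white line, the genes went both ways. Of 22 tested, 9 were upregulated and 8 downregulated, against 17.5% and 25.1% of all 16478 genes tested, 42.6% in all. With scaling by library size alone, which moved the median over all genes tested up by 0.15 on the log2 scale, 10 were upregulated and 5 downregulated. MELO3C002943.2 had 188, 220.0 and 246 CPM in “3_6”, against 0.192, 0.277 and 0.452 CPM in “1_6” (log2 fold change 9.28 ± 0.23 SE, edgeR adjusted p = 1.4e-07). MELO3C025110.2 had 9.66, 11.1 and 15.1 CPM in “3_6”, against 0.192, 0.139 and 0.136 CPM in “1_6” (6.07 ± 0.31, edgeR adjusted p = 1.3e-06), where the “1_6” libraries held 4, 3 and 3 counts. MELO3C004801.2 had 8.94, 6.004 and 10.8 CPM in “3_6”, against 1.29, 0.554 and 0.633 CPM in “1_6” (3.24 ± 0.35, edgeR adjusted p = 7.1e-05). All 3 genes were thus already above their level at 10 DAP in every “3_6” library.

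The genes downregulated in “3_6” had a dip at 30 DAP, of which only the fall between 10 and 30 DAP was tested. The later rise to the peak in “4_6” was set by the rule. MELO3C016836.2 had 0.192, 0.242 and 0.136 CPM in “3_6”, against 6.90, 3.37 and 1.85 CPM in “1_6” (log2 fold change -4.49 ± 0.57 SE, edgeR adjusted p = 0.00017). MELO3C008263.2 had 0.0481, 0.145 and 0.181 CPM in “3_6”, against 1.58, 1.52 and 1.94 CPM in “1_6” (-3.84 ± 0.43, edgeR adjusted p = 9.1e-05). MELO3C017915.2 had 11.5, 13.1 and 10.0 CPM in “3_6”, against 22.1, 26.6 and 28.1 CPM in “1_6” (-1.32 ± 0.17, edgeR adjusted p = 0.00016). In these 3 genes no “3_6” library reached a “1_6” library. The other 5 were MELO3C006072.2, MELO3C015480.2, MELO3C005355.2, MELO3C007734.2 and the kinase MELO3C010825.2. The kinase's log2 fold change of -1.20 ± 0.46 (edgeR adjusted p = 0.043) came from overlapping libraries, with 0.24, 0.823 and 0.453 CPM in “3_6” against 1.39, 1.11 and 0.678 CPM in “1_6”. It was lost without replicate 1 or 2 of “1_6” and without replicate 1 or 3 of “3_6”. Of the 17 calls, 10 held in all 6 fits with 1 library left out.

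Between the lines at 30 DAP, “3_6” versus “3_14”, 4 of 21 genes tested were upregulated and 3 downregulated, against 2.7% and 2.88% of all 15501 genes tested, 5.58% in all. The upregulated genes were MELO3C002943.2, MELO3C032586.2, MELO3C004801.2 and MELO3C005948.2. MELO3C002943.2 had 188, 220.0 and 246 CPM in “3_6”, against 13.03, 7.37 and 9.05 CPM in “3_14” (log2 fold change 4.51 ± 0.24 SE, edgeR adjusted p = 0.00015). MELO3C032586.2 had 6.87, 8.38 and 7.39 CPM in “3_6”, against 2.49, 3.62 and 2.81 CPM in “3_14” (1.38 ± 0.17, edgeR adjusted p = 0.0035). Both genes were higher in every “3_6” library and kept their call in all 6 fits with 1 library left out. The downregulated genes were MELO3C011255.2, MELO3C006335.2 and MELO3C015480.2. MELO3C015480.2 had 0.721, 0.968 and 0.68 CPM in “3_6”, against 1.84, 2.26 and 2.06 CPM in “3_14” (-1.34 ± 0.24, edgeR adjusted p = 0.013). None of the 3 downregulated genes kept its call in all 6 fits. The call of MELO3C004801.2 held in 3 of the 6 fits and was lost without replicate 1 or 3 of “3_6” or replicate 2 of “3_14”, and that of MELO3C005948.2 held in 3 of the 6 and was lost without replicate 2 or 3 of “3_6” or replicate 1 of “3_14”. The 7 calls fell to 3 without replicate 1 of “3_6” and to 2 without replicate 3 of “3_6”.

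Between the lines at 10 DAP, “1_6” versus “1_14”, 7 of 18 genes tested were upregulated and 1 was downregulated, against 13.9% and 12.4% of all 16531 genes tested, 26.3% in all. All 8 calls held in each of the 6 fits with 1 library left out. MELO3C017915.2 had 22.1, 26.6 and 28.1 CPM in “1_6”, against 8.52, 6.12 and 6.85 CPM in “1_14” (log2 fold change 1.94 ± 0.20 SE, edgeR adjusted p = 0.0002). MELO3C032586.2 had 4.41, 3.74 and 2.98 CPM in “1_6”, against 1.04, 0.834 and 1.32 CPM in “1_14” (1.87 ± 0.29, edgeR adjusted p = 0.0012). MELO3C004801.2 had 1.29, 0.554 and 0.633 CPM in “1_6”, against 0.0451, 0.0463 and 0.0914 CPM in “1_14” (3.70 ± 0.61, edgeR adjusted p = 0.0016). The “1_14” libraries of MELO3C004801.2 held 1, 1 and 2 counts, under the floor of 3, so that the size of this fold change rests on very few counts. In these genes no library of the lines overlapped. The others upregulated were MELO3C005355.2, MELO3C003878.2, MELO3C016836.2 and MELO3C008263.2, with log2 fold changes between 1.49 and 2.14. The downregulated gene was MELO3C025110.2, with 0.192, 0.139 and 0.136 CPM in “1_6”, against 1.67, 1.48 and 0.64 CPM in “1_14” (-2.90 ± 0.53, edgeR adjusted p = 0.0027).

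MELO3C032586.2 and MELO3C004801.2 were the 2 genes upregulated in “B-6” at both 10 and 30 DAP, with the limits given above for MELO3C004801.2. With the values of the chosen group added as a description, MELO3C032586.2 averaged 3.71 ± 0.71, 7.55 ± 0.76 and 25.1 ± 2.77 CPM at 10, 30 and 45 DAP in “B-6”, against 1.07 ± 0.25, 2.97 ± 0.58 and 4.71 ± 1.01 CPM in “B-14” (SD, n = 3 each). MELO3C004801.2 averaged 0.826 ± 0.406, 8.59 ± 2.43 and 41.4 ± 18.4 CPM at these stages in “B-6”, against 0.0609 ± 0.0264, 1.87 ± 1.41 and 7.75 ± 1.48 CPM in “B-14” (SD, n = 3 each). The mean level of both genes was thus higher at each later stage in both lines, and higher in “B-6” at each stage. The beta-amyrin synthase had the same order at 30 and 45 DAP, while its 0.307 ± 0.133 CPM in “1_6” and 0.726 ± 0.622 CPM in “1_14” were too low to be tested.

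No gene of the pigment lists used here was among the 28. Of all 14444 genes with at least 5 CPM in some group only 28 were chosen, so that 0 in lists this short is near that share. The study chose these lists on the same samples, so they are no independent evidence, and counts and medians are given in place of a test. Of 40 genes of porphyrin and chlorophyll metabolism with at least 5 CPM in some group, 0 were among the 28, but 21 (52.5%) had their highest mean in “4_6”, against 16.9% of all 14444 genes at that level. Their median ratio of “4_6” to the highest other group was 1.01, against 0.676 over all genes. The share of 52.5% counts any excess of the mean, however small, and does not ask for separate libraries. Among the 21 genes were near ties with overlapping libraries, such as MELO3C020913.2 (1.001), MELO3C011113.2 (1.01) and MELO3C004867.2 (1.02). Only 2 of the 40 genes had a ratio of at least 2. CHLH, the largest subunit of the magnesium chelatase that starts the chlorophyll branch, had 813, 638 and 679 CPM in “4_6”, against 357, 295 and 348 CPM in “3_6”, a ratio of 2.13. PORA MELO3C013592.2, a protochlorophyllide reductase, had 17.6, 15.3 and 16.6 CPM in “4_6”, against 8.15, 5.84 and 6.09 CPM in “3_14”, a ratio of 2.47. CHLH and this PORA entry were higher in every “4_6” library than in any other library. A second PORA entry of the list, MELO3C016714.2, was far more abundant and less distinct. It had 1295, 1111 and 861 CPM in “4_6”, against 949, 776 and 660 CPM in “3_14”. Its ratio was 1.37, and these libraries overlapped.

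The carotenoid list used here, 26 genes taken by identifier, is shorter than the study's own. Of its 25 genes with at least 5 CPM in some group, 0 were among the 28 and 7 (28%) had their highest mean in “4_6”, with a median ratio of 0.669. These 7 also held near ties, such as MELO3C009571.2 with a ratio of 1.01, and 1 gene had a ratio of at least 2. CCD4 MELO3C016224.2, a probable dioxygenase that cleaves carotenoids, had 351, 102 and 124 CPM in “4_6”, against 79.1, 114 and 94.1 CPM in “4_14”, a ratio of 2.01. One “4_6” library lay far above the other two, and the groups overlapped. Of 30 listed transcription factors, 0 had their highest mean in “4_6”, and their median ratio was 0.0842. The study listed most of these as upregulated in “4_14” versus “4_6”, which left little room for a peak in “4_6”. Both values thus follow largely from that choice. Dirigent protein 20, MELO3C014666.2, from the list of strongest differences between “4_14” and “4_6”, had 92.3, 119 and 70.2 CPM in “4_6”, against 54.6, 27.5 and 25.1 CPM in “3_14”, a ratio of 2.62. Dirigent proteins steer the coupling of phenolic radicals in lignan synthesis. It thus came closer to the limit of the rule than any gene of the pigment lists.

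**Figure D4:**
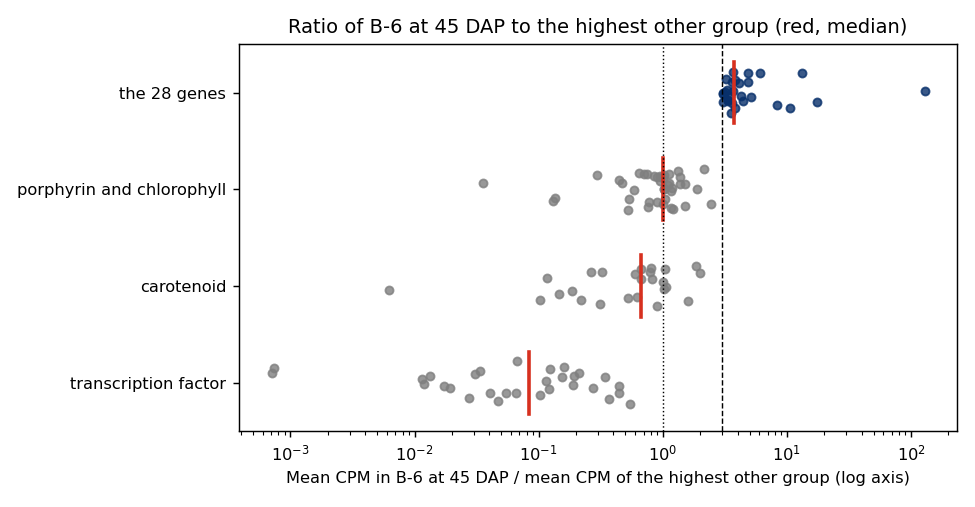
Ratio of the mean CPM in “B-6” at 45 DAP to that of the highest other group, on a log axis, for the 28 genes and for the listed genes with at least 5 CPM in some group (points; red lines, medians). The dotted line marks equal levels and the dashed line the limit of 3. The points of the 3 lists stay left of the limit, with medians of 1.01, 0.669 and 0.0842, while the median of the 28 genes, which the rule placed right of it, is 3.73. Most of the transcription factors were listed by the study as upregulated in “4_14” versus “4_6”, which places them left of the dotted line.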

How the data were processed

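Total RNA of 18 melon fruit samples was sequenced from stranded mRNA libraries as paired-end reads. After trimming with Trimmomatic and alignment to a melon genome with HISAT2, the authors deposited a table of whole-number counts per gene and library, without normalization. Genome build, annotation version and counting program are not given in the sources used here. Groups and replicates were taken from the sample labels. The RefSeq table used here, with 28628 genes, matched 0 of the identifiers. Names are therefore the study's, and positions and sequences are not used here.

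CPM were formed from column totals, and the rule for the 28 genes was applied to group means. Between replicates, 29.0% to 65.7% of genes (sum of 20 counts or more) differed by more than binomial sampling, which alone would give 5%, so no library was a copy. Pairs of groups were fitted by edgeR 4.0.16 in R 4.3.3 (TMM, filterByExpr, quasi-likelihood F test, Benjamini-Hochberg adjustment over all genes tested, 6 libraries per pair) and were tested on simulated data. The study used an unadjusted p with the same 2-fold threshold. Alternatives were DESeq2 1.42.0, other scalings and count filters, all 18 libraries in 1 fit, a replicate block and leaving out each library. Same-numbered libraries of “4_14” and “3_14” deviated together across genes (correlations 0.13 to 0.46 in the 3 pairs), a hint from the data and not from the labels. The block left those 14 calls as they were.

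Named are the genes the study annotates, the 5 highest in “4_6”, the 5 with the largest ratio, those next to each threshold, the 3 with the smallest p in each comparison, the extremes of CV, and listed genes with a ratio of at least 2. Others named were chosen after their values were seen. The rule, the genes and the lists were chosen with earlier results of these data known.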

Additional observations from a re-analysis of the deposited data

Results flagged for a closer look

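For 2 of the 28 genes, the lines differed in opposite directions at 30 and 10 DAP in every library, and this difference between the stages was not tested. Of all 14444 genes with at least 5 CPM in some group, 9.93% had this pattern, so that 2 of 28 (7.14%) is near that share. MELO3C006335.2 had 2.55, 5.08 and 2.54 CPM in “3_6” (mean 3.39), against 16.02, 11.3 and 7.13 CPM in “3_14”, and 0.431, 0.785 and 0.452 CPM in “1_6”, against 0.315, 0.232 and 0.137 CPM in “1_14”. MELO3C016836.2 had 0.192, 0.242 and 0.136 CPM in “3_6” (mean 0.19), against 0.69, 0.498 and 0.281 CPM in “3_14”. At 10 DAP it had 6.90, 3.37 and 1.85 CPM in “1_6”, against 0.901, 0.51 and 1.42 CPM in “1_14”. Both patterns rested in part on few counts. MELO3C006335.2 had 9, 17 and 10 counts in “1_6”, against 7, 5 and 3 in “1_14”. MELO3C016836.2 had 4, 5 and 3 counts in “3_6”, against 15, 11 and 6 in “3_14”. Counts were too low for edgeR to test these 2 differences between the lines.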

How the results depend on the processing

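Over the alternatives run, calls of single genes among the 28 were kept 520 times, lost 56 times and reversed 0 times. Calls of genes that an alternative did not test are in none of these numbers. The filter of 10 counts in every library thus entered as only 23 kept and 1 lost. With at least 10 counts in every library, the genes called fell to 7 in “4_14” versus “3_14” (14 with filterByExpr), 6 in “3_6” versus “1_6” (17), and to 5 at 10 DAP between the lines (8), with fewer of the 28 genes tested. A replicate block left 14, 16 and 8 calls in these comparisons and 3 in “3_6” versus “3_14” (7), where the numbers did not pair the libraries (correlations -0.41 to 0.17). The cause of that fall was not tested. In no comparison did every library correlate best with its own number. Leaving out 1 library gave 12 to 14, 13 to 16, 8 to 9 and, in “3_6” versus “3_14”, 2 to 8 calls, and 27 to 30 genes met the rule. A limit of 2 times gave 77 genes, 4 times 12 genes, and a minimum of 1 CPM 43 genes. TMM or RLE scaling, chosen for the other groups after seeing the data, gave 27 genes for “4_6”, 26 of them among the 28. Depth limits the genes under 10 CPM, where a group mean outside “4_6” often rests on a few counts per library.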
